A study of Mus musculus with 6 samples.

Results

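*Otx2* and 7 other genes that rise when mouse embryonic stem cells (ESCs) leave the naive state were followed in ESCs with and without PATZ1, a zinc finger protein. The members were all symbols in the deposited count tables that match *Otx2*, *Fgf5*, *Pou3f1*, *Zic2*, *Zic5*, *Foxd3*, *Sall2* or *Utf1*, and all 8 were found among the 23420 symbols. *Otx2* was chosen by its counts, which were higher in the knockout, and the others by their place in the same programme. The KO against WT contrast had therefore been seen when the members were chosen, so their values are given as a description and carry no p-value.

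The libraries came from E14 ESCs, a mouse line, grown with LIF and 2i, the MEK inhibitor PD0325901 and the GSK3 inhibitor CHIR99021. There were 3 libraries of WT cells and 3 of *Patz1* KO cells, with replicate numbers 1 to 3 in each genotype. The KO lines were made from WT cells with CRISPR/Cas9, a puromycin plasmid and clonal picking. The study describes the replicates as biological, while its labels do not say which clone each KO library came from, so a difference between genotypes cannot be told apart from a difference between clones.

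ESCs in LIF and 2i are held in naive pluripotency, the state of the early epiblast, in which the MEK inhibitor blocks signalling from FGF receptors to ERK. When the block is lifted, cells pass through a formative state, in which they become able to respond to lineage signals, before they reach the primed state. OTX2, a homeodomain factor, and POU3F1, a POU factor, are known to open enhancers at this step, naive genes such as *Nanog* and *Esrrb* are lowered, and the FGF ligand gene *Fgf5* is the usual marker of the cells that have made it. *Zic2* and *Zic5* encode zinc finger factors of the ZIC family, *Foxd3* a forkhead factor, *Sall2* a zinc finger factor of the SALL family and *Utf1* a chromatin protein of pluripotent cells.

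The guide is shown because it places the edit that separates the genotypes. It lay over the translation start of *Patz1* at chr11:3290600-3290619 on the plus strand of GRCm38 (the same build as mm10), in an exon of 4 annotated transcripts. The capitals mark the start codon, which began at base 15 of the guide counted from its 5′ end, and the next 3 bases in the transcript were cgg.
Patz1 guide: aaggggcagcgaccATGgag

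The 250 bases upstream of a RefSeq start (GRCm38.p6) are shown for *Otx2* and *Sall2*, the pair of members whose KO libraries all lay above their WT libraries. Both genes are on the minus strand, and neither stretch overlaps an annotated exon. They lay at chr14:48667645-48667894 for *Otx2* and at chr14:52316324-52316573 for *Sall2*, at internal starts within the annotated spans of the genes. Capitals mark the word GGGAGGG, a G-rich sequence of the kind that zinc fingers such as those of MAZ and PATZ1 are known to bind, read on either strand (CCCTCCC on the strand shown).
Otx2 upstream: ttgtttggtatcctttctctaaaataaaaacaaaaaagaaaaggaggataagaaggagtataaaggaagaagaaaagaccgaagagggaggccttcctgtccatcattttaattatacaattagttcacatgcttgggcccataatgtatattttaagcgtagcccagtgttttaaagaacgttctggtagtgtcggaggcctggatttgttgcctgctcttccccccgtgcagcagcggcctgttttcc
Sall2 upstream: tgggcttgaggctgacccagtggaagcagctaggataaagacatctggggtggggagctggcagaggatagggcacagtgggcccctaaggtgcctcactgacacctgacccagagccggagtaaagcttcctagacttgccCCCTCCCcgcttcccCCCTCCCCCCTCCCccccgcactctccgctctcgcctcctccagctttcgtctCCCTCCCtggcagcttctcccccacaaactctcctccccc
The *Otx2* stretch had a GC content of 42.0% and no GGGAGGG, and the *Sall2* stretch had a GC content of 64.4% and 4 of them. The stretch before the other RefSeq start of *Sall2*, at chr14:52328671-52328920, had a lower GC content than either and no GGGAGGG, so the contrast between the genes depends on the start taken. RefSeq windows from 250 bases before a start to 50 after it were at hand for 6 of the 8 members, 10 windows in all. GGGAGGG was in 3 of these, a window each of *Fgf5*, *Sall2* and *Utf1*, against 21.95% of all 32851 windows. TAATCC, the core word read by homeodomains of the OTX class, was in 1 window, at another start of *Otx2*, against 7.06% of all windows. A match is only a word in a window, and its absence says nothing of where a factor binds.

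The libraries held between 37573923 and 47721070 counts in replicates 1 and 2, but 11040756 in WT replicate 3 and 11420268 in KO replicate 3. Replicate 3 also stood apart in content, with 14.4% (WT) and 12.5% (KO) of its counts on *Rn45s*, the ribosomal RNA precursor, against 1.79% to 3.03% in the other 4 libraries. *Patz1* itself fell from 1888 ± 82.3 to 859 ± 5.01 normalized counts (mean ± SD, n = 3), or by -1.14 on the log2 scale (DESeq2 adjusted p = 1.58e-26, and -0.87 with chromosome 11 centred), although an edit at the start codon need not remove the transcript. The 6 ESC markers *Pou5f1*, *Sox2*, *Nanog*, *Sall4*, *Tdgf1* and *Zfp42* were abundant in all libraries, with summed levels of 106471 to 111538 normalized counts in WT and 116679 to 120423 in KO, which did not overlap. *Pou5f1*, the core pluripotency factor, had a log2 fold change of 0.14 (DESeq2 adjusted p = 0.454, and 0.0405 with the replicate number as a block). All values below called normalized are counts divided by the size factor of the library, and each log2 fold change compares KO with WT and is given with its standard error (SE).

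*Otx2* transcripts were about 2.7 times as abundant in KO as in WT, and 6 of the other 7 members had 95% intervals that ended below the interval of that difference. Of the other 7 members, *Sall2* lay above WT in all KO libraries by a much smaller margin, *Pou3f1* and *Zic5* lay below WT in all KO libraries, and *Zic2*, *Foxd3*, *Utf1* and *Fgf5* overlapped between genotypes. Across the 8 members the median log2 fold change was -0.04, and -0.20 without *Otx2*, beside 0.01 for all 15309 genes tested. The log2 fold change was above 0 for 4 members and below 0 for 4. *Otx2* was the 1 member called at a DESeq2 adjusted p under 0.05, among 7 that received an adjusted p (2.70% of all tested genes were called higher in KO and 7.49% in either direction), and nothing is read from that count because the same contrast led to the choice of members. With the replicate number as a block *Otx2* was the 1 member called (14.6% of all tested genes in that fit, 6.68% higher and 7.95% lower). Nothing is read from that count either, for the same reason. In bulk RNA a higher level in each cell and a larger share of cells with the transcript cannot be told apart.

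**Figure D1:**
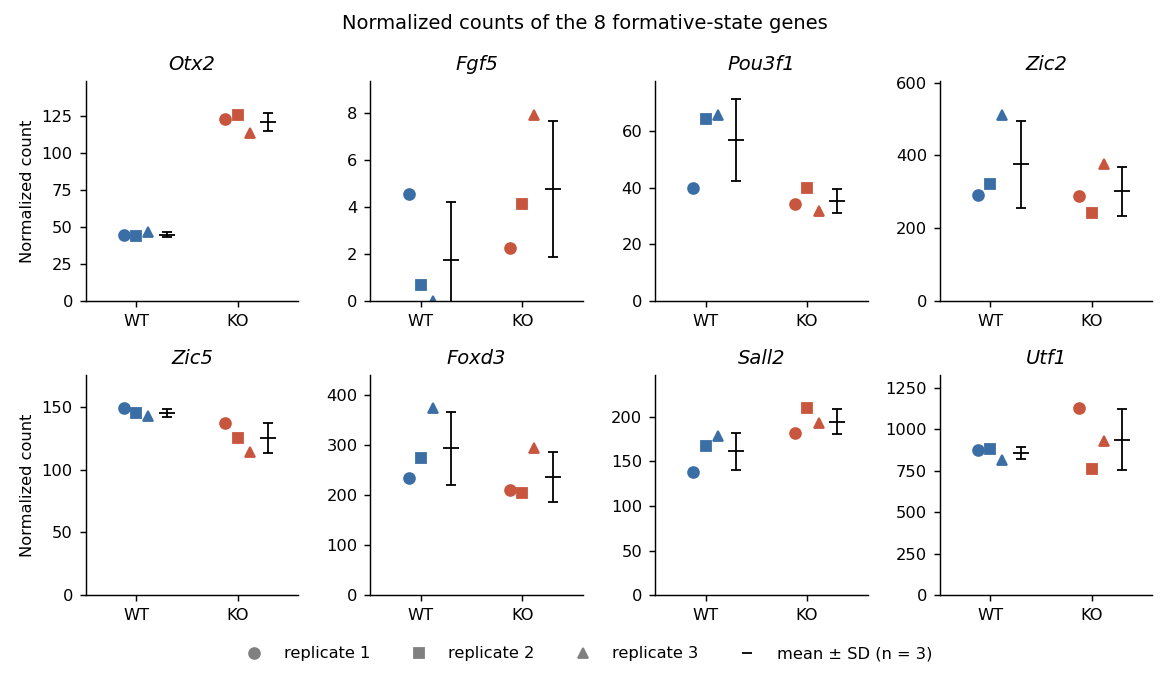
Normalized counts of each member (vertical axes, each from 0) in the 3 WT and 3 KO libraries, as points by replicate number, with a bar at the mean and its SD (cut at 0 for *Fgf5*). *Otx2* is the member with the widest gap, with WT libraries between 43.8 and 46.5 and KO libraries between 114 and 126.

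*Otx2* (chr14:48657677-48673819, minus strand) is needed in the embryo for the forebrain and in ESCs for the formative step. In the order of the replicate numbers, the raw counts were 78, 62 and 17 for WT and 218, 212 and 43 for KO. In normalized counts these were 44.6, 43.8 and 46.5 in WT and 123, 126 and 114 in KO. The lowest KO library thus lay far above the highest WT library, and replicates varied little within a genotype. The means were 45.0 ± 1.42 and 121 ± 6.35 (SD, n = 3), and the fitted log2 difference was 1.45 (SE 0.25, 95% interval 0.96 to 1.94). Within replicate pairs the KO to WT ratio was 2.76, 2.87 and 2.44. The ratio of the shallow pair of replicates 3 had the widest exact counting interval, 1.36 to 4.57, against 2.12 to 3.62 in pair 1. Among the 414 genes called higher in KO, 40, *Otx2* included, had at least its log2 fold change.

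A long noncoding RNA gene, *Otx2os1*, runs from the opposite strand of this locus and shares 154 exon bases with *Otx2*. It had 10, 6 and 2 counts in WT and 0, 1 and 0 in KO, 18 against 1 in sum, and received no adjusted p. Its counts were lower in each KO library than in the WT library of the same number, the opposite order to *Otx2*, at a depth where most libraries were near the floor of 3 counts. Whether the counting used strand is not given in the sources used here, so reads in the shared bases cannot be assigned to either gene with certainty.

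*Fgf5* (chr5:98254184-98277030, plus strand), the secreted ligand that marks formative and early primed cells, was barely detected. It had 8, 1 and 0 counts in WT and 4, 7 and 3 in KO. The genotypes overlapped, and no difference was detectable at this depth. The fitted log2 fold change of 1.04 had an SE of 1.27 and a 95% interval from -1.46 to 3.53, which includes the value of *Otx2*. It became 2.84 without WT replicate 1 and 0.25 without replicate 3 of both genotypes.

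*Pou3f1* (chr4:124656807-124660655, plus strand), also known as *Oct6*, encodes the POU factor that acts beside OTX2 on formative enhancers. It had 40.0, 64.3 and 65.7 normalized counts in WT and 34.4, 39.7 and 31.7 in KO. All KO libraries lay below all WT libraries, although KO replicate 2 and WT replicate 1 almost met. The mean went from 56.7 ± 14.4 to 35.3 ± 4.08, 62.3% of WT, with a log2 fold change of -0.63 (SE 0.34, 95% interval -1.30 to 0.05). The sign was therefore opposite to that of *Otx2* in these libraries, with an interval that reached just past 0.

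*Zic2* (chr14:122475435-122479852, plus strand), which encodes a factor that binds enhancers in ESCs and is needed in forebrain development, had 292, 323 and 512 normalized counts in WT and 289, 243 and 375 in KO. The genotypes overlapped, and replicate 3 was the highest library in each. Its neighbour *Zic5* (chr14:122456795-122465677, minus strand), of the same family, starts 9.76 kb away and is read in the other direction. *Zic5* had 149, 145 and 142 normalized counts in WT and 137, 125 and 114 in KO, so that its KO libraries lay below WT by a narrow margin. The log2 fold changes were -0.31 for *Zic2* (SE 0.22, 95% interval -0.73 to 0.11) and -0.20 for *Zic5* (SE 0.20, 95% interval -0.59 to 0.19).

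*Foxd3* (chr4:99656299-99658622, plus strand) encodes a forkhead factor with known roles in both keeping and leaving naive pluripotency. It had 233, 273 and 372 normalized counts in WT and 209, 205 and 293 in KO. The libraries of the genotypes overlapped, but KO was below WT within each replicate pair, as it was for *Pou3f1*, *Zic2* and *Zic5*. For *Zic2* pair 1 was nearly equal (KO to WT ratio 0.99, exact counting interval 0.87 to 1.12). The share of all genes with such an order was not counted, so nothing is read from it. For *Foxd3*, replicate 3 was again the highest in each genotype, the replicate that was shallow and rich in *Rn45s*. Without replicate 3 of both genotypes the log2 fold change was -0.21 for *Zic2* and -0.29 for *Foxd3*, and it was -0.060 and -0.14 without WT replicate 3 alone and -0.46 for both genes without KO replicate 3 alone. The KO mean was 80.5% of the WT mean, with a log2 fold change of -0.31 (SE 0.20, 95% interval -0.71 to 0.09).

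*Sall2* (chr14:52311172-52328762, minus strand), which encodes a zinc finger factor detected in neural tissue and in pluripotent cells that leave the naive state, was the other member above WT in all KO libraries. It had 138, 167 and 178 normalized counts in WT and 182, 209 and 193 in KO. The highest WT library and the lowest KO library almost met. The mean went from 161 ± 20.5 to 195 ± 13.9, 121% of WT, with a log2 fold change of 0.30 (SE 0.19, 95% interval -0.07 to 0.66). Its interval ended below the lower bound of *Otx2*.

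*Utf1* (chr7:139943789-139945112, plus strand), a chromatin-bound protein gene already active in naive ESCs, was the most abundant member. It had 877, 883 and 819 normalized counts in WT and 1127, 760 and 928 in KO. The KO libraries fell on both sides of the WT range, with SDs of 35.7 in WT and 184 in KO. The log2 fold change was 0.12 (SE 0.15, 95% interval -0.17 to 0.41).

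**Figure D2:**
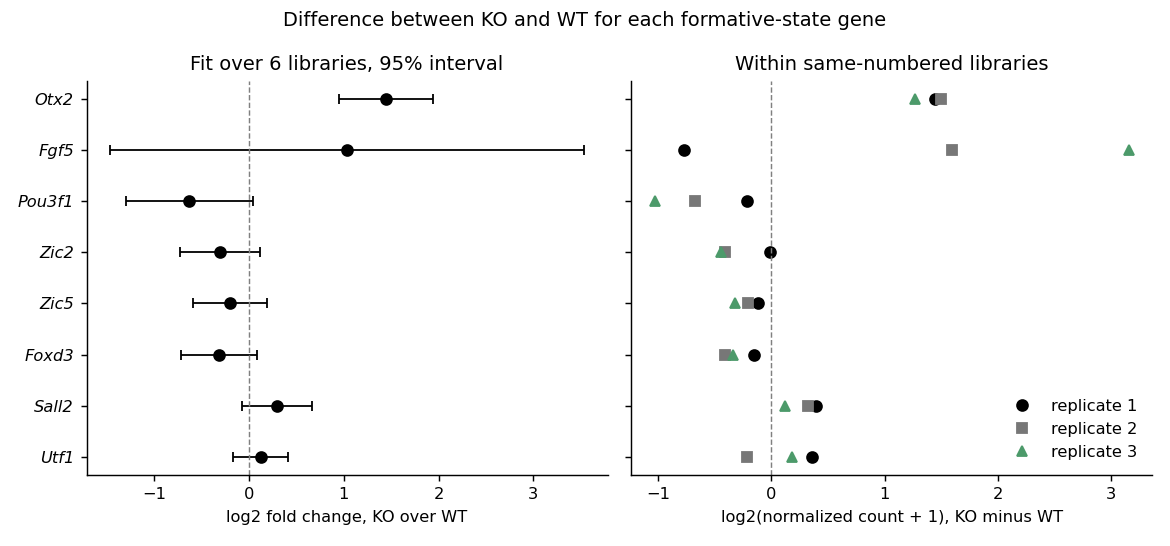
Left, log2 fold change of each member, KO over WT (horizontal axis), with its 95% interval as a bar; right, KO minus WT in log2(normalized count + 1) within same-numbered libraries, with a marker for each replicate. The interval of *Otx2* (0.96 to 1.94) lies to the right of those of 6 other members, and that of *Fgf5* (-1.46 to 3.53) is the widest.

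WT and KO libraries were fully apart for 4 of the 8 members, *Otx2* and *Sall2* with KO above and *Pou3f1* and *Zic5* with KO below. Among all tested genes, 25.6% had libraries that did not overlap, 11.8% with KO above and 13.8% with KO below. *Fgf5* was the member whose interval did not end below the lower bound of *Otx2*. Leaving out any library kept *Otx2* between 1.41 and 1.48 on the log2 scale. The sign of *Utf1* depended on 1 library, since without KO replicate 1 its log2 fold change was -0.044.

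Levels were compared between members per length, in TPM, a level scaled to gene length and library depth, computed here from the counts and merged exon lengths. In WT the order was *Utf1* at 54.4 TPM, *Zic2* at 10.3, *Foxd3* at 9.88, *Sall2* at 2.31, *Zic5* at 2.31, *Pou3f1* at 1.14, *Otx2* at 0.83 and *Fgf5* at 0.055. The libraries of *Zic2* and *Foxd3*, of *Sall2* and *Zic5*, and of *Pou3f1* and *Otx2* overlapped, so these neighbours do not differ beyond their spread. In KO, *Otx2* stood at 2.10 TPM, between *Sall2* at 2.64 and *Zic5* at 1.88, and overlapped with *Zic5*. *Pou3f1* stood at 0.67 TPM in KO and came after both. *Otx2* thus moved from place 7 to place 5 of 8, while the order of the other members stayed as it was, although even in KO its level was far below the 56.9 TPM of *Utf1*.

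**Figure D3:**
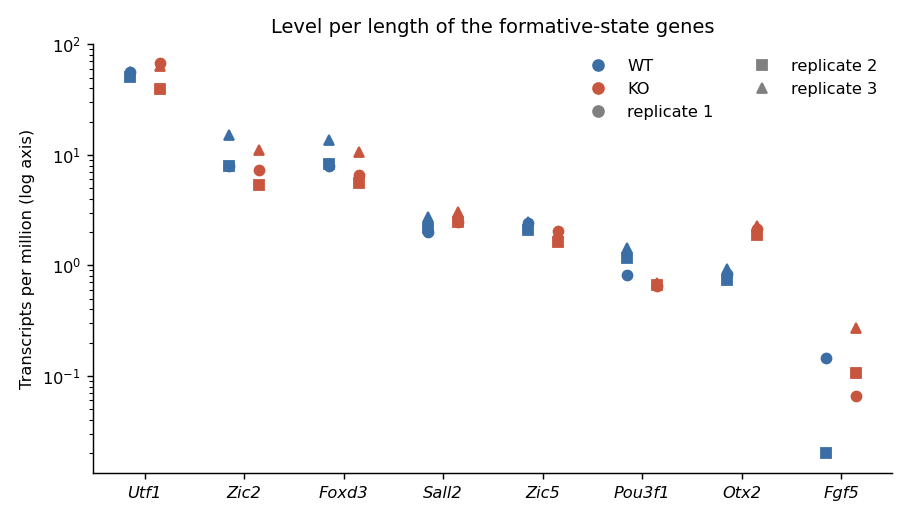
TPM of each member on a log axis, by library, in WT and KO, with members in the order of their WT mean. *Otx2* goes from a mean of 0.83 in WT to 2.10 in KO, while the other members keep their order, and the WT library in which *Fgf5* had 0 counts is not drawn.

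Other genes of the formative programme, a list of 16 chosen with earlier results of these data known, were split evenly around 0. The median log2 fold change was -0.00 (range -1.31 to 0.84), with 8 genes above 0 and 8 below, beside 0.01 over all genes tested. The split depends on *Etv4*, on chromosome 11, which went from -0.10 to 0.16 with that chromosome centred. In DESeq2, 2 of the 16 rose and none fell, against 2.70% and 4.78% of all tested genes. *Sox4*, a SOX factor of early lineages, rose from 217 ± 56.2 to 382 ± 63.8 normalized counts (log2 fold change 0.84, SE 0.20, adjusted p = 0.00121, 5.81e-07 to 0.0592 over the alternatives), with all KO libraries above WT. *Dnmt3l*, a partner of the de novo DNA methyltransferases, rose by 0.53 on the log2 scale (SE 0.15, adjusted p = 0.00953, 1.37e-13 to 0.568 over the alternatives), with overlapping libraries. The enzyme *Dnmt3b*, which is induced at the formative step, had a log2 fold change of 0.16 (adjusted p = 0.671). The call of *Sox4* was lost without WT replicate 1 (adjusted p = 0.0592). That of *Dnmt3l* was lost in fits that left out WT replicate 2 (adjusted p = 0.159), KO replicate 1 (0.169), KO replicate 3 (0.0767) or replicate 3 of both genotypes (0.568), and in edgeR (0.0863) and limma-voom (0.0703).

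Naive genes, which give way as formative genes come on, were mostly not called. Of 14 naive genes, 1 fell and none rose in DESeq2, 11 had a log2 fold change above 0 and the median was 0.09. The share called, 7.14% of the list, was near the 7.49% of all tested genes (4.78% lower and 2.70% higher). *Dppa3*, a naive and germline gene, fell from 50.7 ± 8.40 to 24.0 ± 2.53 normalized counts (log2 fold change -1.08, adjusted p = 0.0375, 0.0184 to 0.312 over the alternatives), and the call held in 1 of the 6 fits that left out a library, the one without WT replicate 3. *Nanog* had a log2 fold change of 0.01 (adjusted p = 0.982) and *Esrrb*, an orphan nuclear receptor of the naive network, 0.11 (adjusted p = 0.634). With replicate number as a block, *Zfp42*, *Tcl1* and *Nr5a2* also passed, each higher in KO, against 6.68% of all genes called higher in that fit.

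Genes of FGF to ERK signalling were examined because that pathway drives the formative step and was inhibited by the medium. Of 11 genes with an adjusted p, 1 rose and none fell in DESeq2, against 2.70% and 4.78% of all tested genes, with a median log2 fold change of 0.21. *Fgfr2*, a receptor, rose from 32.4 ± 10.2 to 73.9 ± 18.7 normalized counts (log2 fold change 1.23, SE 0.36, adjusted p = 0.0131, 0.00385 to 0.255 over the alternatives). This call was lost in edgeR (adjusted p = 0.0552) and limma-voom (0.0513). It was also lost when WT replicate 1 (0.255), KO replicate 2 (0.251) or KO replicate 3 (0.0652) was left out. *Fgf4*, the ligand that ESCs make, had 0.21 (adjusted p = 0.218), and *Etv5*, a target of ERK, had 0.10 (adjusted p = 0.662). With the replicate block 4 genes were called, all higher, against 6.68% of all genes in that fit, and *Fgf4* (adjusted p = 0.00964), the feedback phosphatase gene *Dusp6* (0.000315) and *Spred1* joined *Fgfr2*.

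Factors known to push ESCs out of the naive state included 2 of 11 that fell and none that rose, against 4.78% and 2.70% of all tested genes. *Flcn* (log2 fold change -0.41, adjusted p = 0.0163, 0.000213 to 0.736 over the alternatives) and *Fnip1* (-0.32, adjusted p = 0.0344, 0.00226 to 0.936) encode partners in a complex that controls the entry of TFE3 into the nucleus. Both lie on chromosome 11, whose 1260 tested genes had a median log2 fold change of -0.27, beside 0.01 for all genes. With that chromosome centred in each library they had log2 fold changes of -0.14 (adjusted p = 0.736) and -0.05 (adjusted p = 0.936). The call of *Flcn* was also lost when either of the WT replicates 1 and 2, or of the KO replicates 1 and 3, was left out, and that of *Fnip1* when any of the 6 libraries was. *Tcf7l1*, a repressor of the naive network, had -0.08 (adjusted p = 0.951).

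No paralogue of a member passed the test. Of 14 paralogues 10 had an adjusted p, and 0 passed in DESeq2, edgeR or limma-voom, where 3 had an unadjusted p under 0.05 by each tool, beside 7.49% of all tested genes called in DESeq2. With the replicate block, which called 14.6% of all genes, *Sall1* passed (log2 fold change 0.29, adjusted p = 0.00335). The median log2 fold change of the list was 0.04.

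**Figure D4:**
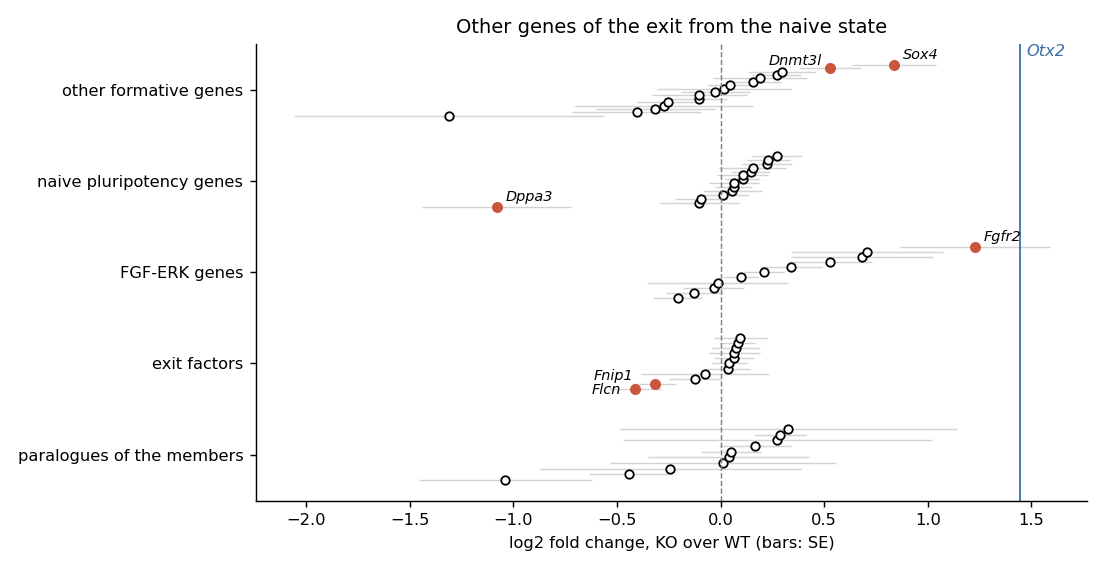
Log2 fold change with its SE (horizontal axis, KO over WT) of each gene of the formative, naive, FGF-ERK, exit and paralogue lists, filled where the adjusted p was under 0.05, with a line at the value of *Otx2*. No gene of these lists with an adjusted p reaches the 1.45 of *Otx2*, the closest being *Fgfr2* at 1.23.

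Markers of other cell types were read beside *Otx2*, since it is also active in neural and anterior tissue. Among 30 markers 21 had an adjusted p, and 2 rose and 2 fell, against 7.49% called of all tested genes. The 7 neural markers summed to 123 to 138 normalized counts in WT and 101 to 137 in KO, and the 6 primitive streak markers to 835 to 1131 and 681 to 1011, with overlap in each case. The most abundant marker had a mean over the 6 libraries of 77.7 (neural) and 658 (streak), so each sum rested largely on 1 gene. Primitive endoderm markers also overlapped in sum (133 to 189 and 160 to 214), with *Dab2* higher in KO (log2 fold change 1.33, adjusted p = 0.00191). The other 5 markers of that list had log2 fold changes below 0, down to -0.83 for *Sox17*, and none of them passed. Trophoblast markers summed to less in KO (956 to 1082 in WT, 702 to 812 in KO), with log2 fold changes of -0.66 for *Krt8* (adjusted p = 2.77e-05) and -0.72 for *Cdx2* (adjusted p = 0.0350). The other trophoblast markers with an adjusted p were *Gata3*, at 0.94 (adjusted p = 0.209), and *Krt18*, at 0.15 (adjusted p = 0.844). The trophoblast sum also rested largely on 1 gene, with a mean of 548 over the 6 libraries. Fibroblast markers summed to more in KO (86.9 to 108 and 134 to 166), with a log2 fold change of 0.83 for *Thy1* (adjusted p = 0.0147). That sum rested on *Thy1*, with a mean of 72.5 normalized counts in WT and 129.9 in KO, while *Col1a1* (-0.23, adjusted p = 0.933) and *Col1a2* (-0.90, adjusted p = 0.629) had log2 fold changes below 0. Over the alternatives the adjusted p ran from 0.000406 to 0.0770 for *Dab2*, 1.99e-06 to 0.00790 for *Krt8*, 0.0224 to 0.291 for *Cdx2* and 0.00927 to 0.248 for *Thy1*. The call of *Dab2* was lost without WT replicate 1 or WT replicate 2, that of *Cdx2* without any of the 6 libraries and that of *Thy1* without any library but WT replicate 3. No marker was at 0 in every library, and among the fibroblast markers *Dcn* was at or under the floor of 3 counts in each. *Foxa2*, a marker of endoderm and streak, had 0 counts in every WT library and 22, 7 and 2 in KO, and received no adjusted p. The part of these markers in the *Otx2* value was not tested.

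Of the 8 members, 4 lie on chromosome 14. They do not form a cluster, since the starts of *Otx2* and *Sall2* are 3.65 Mb apart and *Zic2* and *Zic5* lie further along. Over the 517 tested genes of that chromosome the median was 0.04 on the log2 scale, with 23 of them (4.45%) called, against 7.49% of all tested genes. Within 0.5 Mb of the start of a member there were 102 genes, 64 of them tested, and none was called by DESeq2, edgeR or limma-voom, with 1, 4 and 8 at an unadjusted p under 0.05. The DESeq2 share over all tested genes was the same 7.49%. Around *Otx2*, 5 of 7 genes were tested, and their log2 fold changes ran from -0.33 to 0.09, well short of the value of *Otx2*. With the replicate block 2 neighbours of *Sall2* passed, a smaller share of the neighbours than the 14.6% called of all genes in that fit. They were *Hnrnpc* at 0.16 (adjusted p = 0.0250) and *Supt16* at 0.17 (adjusted p = 0.0162).

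**Figure D5:**
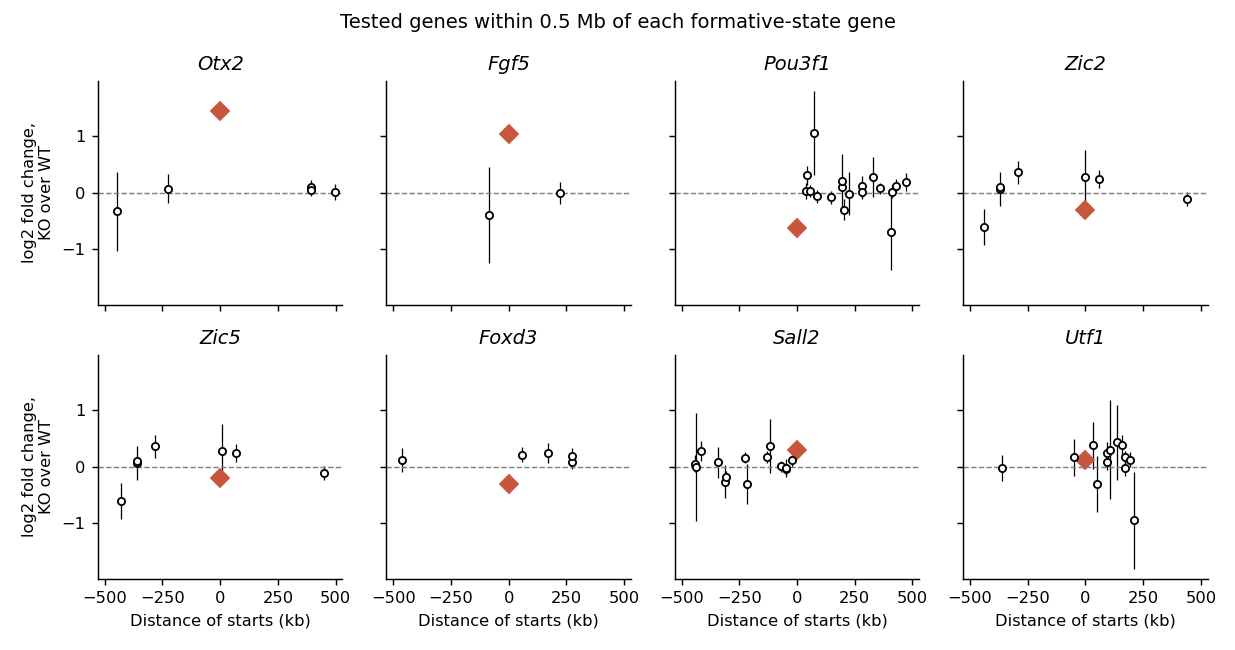
Log2 fold change with SE (vertical axis, KO over WT) of tested genes within 0.5 Mb of each member, by the distance of their start from that of the member in kb, with the member as a diamond. *Otx2* at 1.45 stands above its neighbours, which lie between -0.33 and 0.09.

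The genes most like *Otx2* over the 6 libraries were named by Pearson's r on log2(normalized count + 1) among 11524 genes with a mean of at least 50. Since the WT and KO values of *Otx2* lay far apart, a high r with it largely reflects a difference between genotypes, and r is given as a description. The 5 highest were *Sv2a* (r = 0.999), *Naa40* (0.997), *Smyd3* (0.995), *Cul4b* (0.995) and *Itgb1* (0.994). *Sv2a*, a synaptic vesicle protein gene, had a log2 fold change of 2.97, above that of *Otx2*, and the others had 0.60 for *Naa40*, 0.28 for *Smyd3*, 0.36 for *Cul4b* and 0.20 for *Itgb1*. *Smyd3* and *Itgb1* did not pass in DESeq2 (adjusted p = 0.170 and 0.129), although *Itgb1* did with the replicate block (0.00477). All 5 were picked by likeness to a gene that separates the genotypes, so these p-values are no evidence of a difference. Among the other members r ran from -0.78 for *Zic5* to 0.76 for *Sall2*, and at 0.76 *Sall2* ranked 1423 of the 11524 genes.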

How the data were processed

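RNA-seq libraries of 3 WT and 3 *Patz1* KO E14 ESC samples were prepared by the authors from total RNA with ribosomal depletion and a stranded kit. The deposited values were raw read counts per gene symbol, one table per library. Per the submitters' processing notes, the tools were TopHat2 2.1.1, Bowtie2 2.3.1.0, featureCounts 1.6.2 and DESeq2, with mm10. The annotation, the use of strand and the handling of duplicates are not given in the sources used here, so overlapping genes are uncertain.

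Groups came from sample titles. KO was compared with WT over all genes with DESeq2 1.42.0 (R 4.3.3), using the two-sided Wald test, median-of-ratios size factors, genotype as the only term, independent filtering at its default of 0.1, Benjamini-Hochberg adjustment and a threshold of 0.05. Intervals are Wald intervals at 95%. Of 15309 genes with an adjusted p, 1146 were called. The members and gene lists were chosen with earlier results of these data known. Genes named are the members, *Patz1*, up to 5 called genes per list, 8 fixed genes, the 5 most like *Otx2* and called neighbours. *Foxa2*, the block calls and markers that were not called were named after their values were seen.

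Same-numbered WT and KO libraries deviated together from their group means (correlations of 0.469, 0.619 and 0.684 for replicates 1 to 3 over 11524 genes), so the numbers in the titles were taken to pair the samples. No libraries agreed within sampling noise (lowest chi-square per degree of freedom 9.50 over 15 pairs). The floor of 3 counts was 1.69 to 8.21 normalized counts, and floors and exact intervals cover counting error only. Positions came from GENCODE on GRCm38 (23055 of 23420 symbols placed, 1278 by an older symbol), and TPM from merged exon lengths or coding lengths. Motif words were searched on both strands of RefSeq windows. Alternatives were edgeR 4.0.16 (quasi-likelihood), limma 3.58.1 (voom), TMM size factors, at least 10 counts in 3 libraries, no independent filtering, the replicate block, leaving out each library or both replicate 3 libraries, and centring chromosome 11 and distal X. The fits were tested on simulated data.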

Additional observations from a re-analysis of the deposited data

How the results depend on the processing

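Over 14 alternatives the log2 fold change of *Otx2* stayed between 1.41 and 1.49, and those of *Pou3f1* (-0.86 to -0.49), *Zic2* (-0.46 to -0.06), *Zic5* (-0.27 to -0.15), *Foxd3* (-0.46 to -0.14) and *Sall2* (0.18 to 0.36) kept their sign. That of *Utf1* ran from -0.044 to 0.26. That of *Fgf5* ran from 0.61 to 2.84 when a library was left out, with the highest value without WT replicate 1, and was 0.25 without both replicate 3 libraries. With coding lengths *Otx2* took place 6 in WT and place 4 in KO. The number of genes called, 1146, became 2131 with the replicate block (14.6% of 14567 tested), and 583 to 1341 when a library was left out.

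With the replicate block the lists had 4 naive, 4 FGF-ERK and 1 paralogue gene called and 2 neighbours of members. The block also added *Tead2* to the formative list and 3 of the ESC markers. In edgeR and limma-voom the formative list had 1 called gene and the FGF-ERK list 0 (6 and 5 at an unadjusted p under 0.05). Without both replicate 3 libraries the naive list had 0 (3 at an unadjusted p under 0.05), the exit factors 1, the paralogues 1 and other cell type markers 2. With chromosome 11 and distal X centred, the naive list had 0 (3 at an unadjusted p under 0.05) and the exit factors 0 (0 at an unadjusted p under 0.05). With that centring, and also without independent filtering, 5 other cell type markers were called, 3 higher and 2 lower. Those fits called 797 and 1074 of all genes. Leaving out a library gave 1 to 2 formative, 0 to 1 naive, 0 to 2 FGF-ERK, 0 to 1 exit, 0 to 1 paralogue and 1 to 4 other cell type genes. Changes of sign were seen for *Nanog* (-0.091 to 0.11 when a library was left out) and *Tcf7l1* (-0.30 to 0.27 when a library was left out, 0.0032 in limma-voom and 0.056 without both replicate 3 libraries). The causes were not tested. Depth limits what can be said of genes with few counts, such as *Fgf5*, *Otx2os1* and *Foxa2*, and of replicate 3 of each genotype.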
